A study of Mus musculus with 3 samples.

Results

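In all, 10 genes of the BMP pathway and its best known target family were followed through 3 cultures of mouse cells, namely the ligands Bmp2 and Bmp4, the receptors Bmpr1a and Bmpr2, the inhibitory SMADs Smad6 and Smad7, and the inhibitors of DNA binding Id1, Id2, Id3 and Id4. The members were taken by name, and all 10 were listed in the tables of the CPCC and CB cultures, while 9 were listed in mESC, where Bmp2 had no row. Across the 3 tables, 27886 genes were listed. All cells were male F1 hybrids with a C57BL/6J mother and a CAST/EiJ father, a cross written C57BL/6 x CAST/EiJ in the sample labels. The mESC were embryonic stem cells kept in serum with LIF and 2 kinase inhibitors. The CPCC, labelled cardiac precursor cells, came from embryoid bodies that had formed in hanging drops and grown with ascorbic acid, and were then dissociated and passaged in EGF and Fgf2. The CB, labelled mature cardiac cells, were bodies grown on in the ascorbic acid medium and picked because they beat, so CPCC were not the source of CB. Serum was part of all 3 media, and none of the protocols names an added BMP ligand or an engineered allele. The study's stem cell clones came from several blastocysts, and no label says which clone a library pool held. The title of the mESC sample calls it a triplicate, but no label or table header ties its 3 pools to replicates.

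Bone morphogenetic proteins are secreted ligands that bind paired type I and type II receptors. The receptors phosphorylate SMAD1, SMAD5 and SMAD9, which enter the nucleus with SMAD4 and switch on target genes, among them the Id genes and the inhibitory SMADs that damp the pathway in return. Id proteins lack a DNA-binding region and pair with the E proteins Tcf3, Tcf4 and Tcf12, keeping them from acting with lineage-specifying partners. In embryonic stem cells BMP and Id proteins are known to help LIF hold back differentiation, and in the embryo BMP signalling is needed for the heart to form.

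Each culture was deposited as 1 sample, with 215 mESC, 175 CPCC and 232 CB cells in 3, 2 and 3 library pools, so no test between cultures was possible and no p-value is given. Values of the pools are printed as a description of spread. The median depth was 1528316, 1437414 and 1397869 counts per cell, and single cells ranged from 4 to 8105511. The median number of genes per cell was 9532, 9252 and 6661, so CB cells held fewer genes at a similar depth. No cell shared both its total and its number of genes with another cell. The labelled types were checked against markers. All 10 pluripotent markers were detected in most mESC cells, while 2 of them, Pou5f1 and Dppa5a, had no row in CB. Of 12 cardiomyocyte markers in CB, the most widely detected were Actc1 in 15.1% and Tnnt2 in 14.7% of cells, so each of these markers had no count in most cells of the beating bodies. Collagen genes were far more widespread there (Col1a2 in 76.3% of cells). In CPCC, 7 of the 10 pluripotent markers were at least 2-fold lower than in mESC and none was higher (median log2 ratio -1.62), and each was found in 38.3% (Tfcp2l1) to 82.9% (Dppa5a) of cells. Fewer cells of a type and less RNA per cell cannot be told apart in a level summed over a culture, and the levels below are such sums, given as CPM, counts scaled to a total of 1000000 in each culture or pool.

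The start regions of the genes are shown first, because SMAD proteins are known to bind 2 short palindromes, the GC-rich GGCGCC of BMP target genes and GTCTAGAC. RefSeq promoter windows, 250 bases before to 50 bases after the start in GRCm38.p6, matched 7 of the 10 members, and both palindromes read the same on either strand. GGCGCC was present in the windows of 4 of the 7 (Id2, Id4, Bmpr1a and Bmpr2) and in 11.9% of all 32851 windows. These windows were rich in G and C, from 59.3% in Bmpr2 to 79.3% in Bmpr1a. GTCTAGAC was present only in Smad6 among the 7 and in 0.213% of all windows. The Smad6 copy began 4 bases before the start. A match describes letters and is not evidence of binding. Capitals mark the palindromes in the stretches below, written 5′ to 3′ on the strand of the gene.
Id2 (chr12:25096254-25096342, GRCm38.p6, minus strand, outside annotated exons and inside the annotated gene): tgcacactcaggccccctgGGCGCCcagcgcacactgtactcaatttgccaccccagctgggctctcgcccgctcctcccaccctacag
Id4 (chr13:48260866-48261115, GRCm38.p6, plus strand, the 250 bases before the start): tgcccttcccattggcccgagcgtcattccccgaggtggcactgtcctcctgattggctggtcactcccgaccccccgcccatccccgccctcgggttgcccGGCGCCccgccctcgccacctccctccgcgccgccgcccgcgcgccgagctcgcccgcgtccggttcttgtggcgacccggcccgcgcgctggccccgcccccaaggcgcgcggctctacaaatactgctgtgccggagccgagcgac
Bmpr1a (chr14:34502688-34502796, GRCm38.p6, minus strand, outside annotated exons and inside the annotated gene): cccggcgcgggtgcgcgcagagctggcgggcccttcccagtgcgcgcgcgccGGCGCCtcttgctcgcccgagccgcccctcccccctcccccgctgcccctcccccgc
Smad6 (chr9:64022045-64022074, GRCm38.p6, minus strand, 15 bases on either side of the start): gccgccaaagtGTCTAGACtggcatatgat

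Bmp4 was low in mESC and clearly present in both other cultures. The gene (chr14:46383520-46390669) encodes a ligand that patterns mesoderm and is needed for early heart formation. Its level was 2.73 CPM in mESC (pools 4.07, 2.22 and 1.96), 44.4 CPM in CPCC (34.7 and 53.4) and 80.9 CPM in CB (98.9, 27.5 and 122). Every CPCC and CB pool lay above every mESC pool, while the CB pools spanned the CPCC range on both sides. The ratio to mESC was 16.3-fold in CPCC (log2 ratio 3.61) and 29.7-fold in CB (log2 ratio 4.46). These log2 ratios and those below are of (CPM + 1), which understates the change of low genes. Without CB pool 3 the log2 ratio of CB to mESC was 3.79. To compare shares of cells at equal depth, every cell was thinned to 430000 counts, which left 193 mESC, 157 CPCC and 210 CB cells. At that depth Bmp4 was found in 9.84% of mESC cells (95% exact binomial interval 6.03 to 14.9%), 42.0% of CPCC cells (34.2 to 50.2%) and 39.5% of CB cells (32.9 to 46.5%). The intervals cover the sampling of cells within a culture only, and not the spread between pools or cultures. Reads carried no molecular identifiers. At equal counts, Bmp4 was thus found in a similar share of CPCC and CB cells. Thinning evened out counts and not the number of genes per cell, which was lower in CB. The part of this difference in the CB shares here and below was not tested. The log2 ratio of its level in CB to that in CPCC was 0.85, and it was 0.18 without CB pool 3 and 1.36 without CB pool 2. Among all cells with a count its median was 52.3 CPM in CPCC and 133 CPM in CB. In mESC pool 3 a single cell held 94.6% of the Bmp4 counts.

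Bmp2 (chr2:133552159-133562885), the ligand most closely related to Bmp4, was the scarcer of the pair. It was not listed in mESC and was not set to 0 there. Its level was 6.84 CPM in CPCC (pools 6.61 and 7.07) and 17.3 CPM in CB (11.6, 5.32 and 30.9). The CB pools fell on both sides of the CPCC pools. The log2 ratio of 1.22 between them rested on CB pool 3 and was 0.09 without it. Bmp2 was found in 12.7% of CPCC cells (7.96 to 19.0%) and 19.0% of CB cells (14.0 to 25%) after thinning. Per kilobase of exon, Bmp4 stood at 19.7 and Bmp2 at 1.93 CPM per kb in CPCC, and at 36.0 and 4.88 in CB. Both ligands were found together in 8.28% of CPCC and 11% of CB cells.

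The receptors were present in all 3 cultures. Bmpr1a (chr14:34410734-34503341), a type I receptor needed for mesoderm and heart, had 47.2 CPM in mESC (pools 60.2, 42.5 and 39.5), 87.8 CPM in CPCC (53.4 and 120) and 169 CPM in CB (245, 140 and 163). Every CB pool was above every other pool, whereas CPCC pool 1 lay within the mESC range. The log2 ratio was 1.82 between CB and mESC and 0.88 between CPCC and mESC. CPCC over mESC was 1.33 without CPCC pool 1 and 0.18 without CPCC pool 2. It was found in 85.0%, 82.2% and 76.7% of mESC, CPCC and CB cells. The share went against the level, so no order was read from it.

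Bmpr2 (chr1:59763400-59879014), the type II receptor dedicated to BMP ligands, had 14.9 CPM in mESC (pools 16.6, 11.8 and 17.4), 50.3 CPM in CPCC (30.3 and 68.9) and 120 CPM in CB (155, 106 and 118). The pools of the 3 cultures did not overlap. Relative to mESC the level was 3.36-fold in CPCC and 8.05-fold in CB, with log2 ratios of 1.68 and 2.93. The first was 0.97 without CPCC pool 2. Level and share moved together for this receptor, which was found in 46.1% of mESC cells (38.9 to 53.4%), 61.1% of CPCC cells (53.1 to 68.8%) and 72.9% of CB cells (66.3 to 78.7%). Both receptors were found in the same cell in 40.9%, 51.6% and 57.1% of cells.

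**Figure D1:**
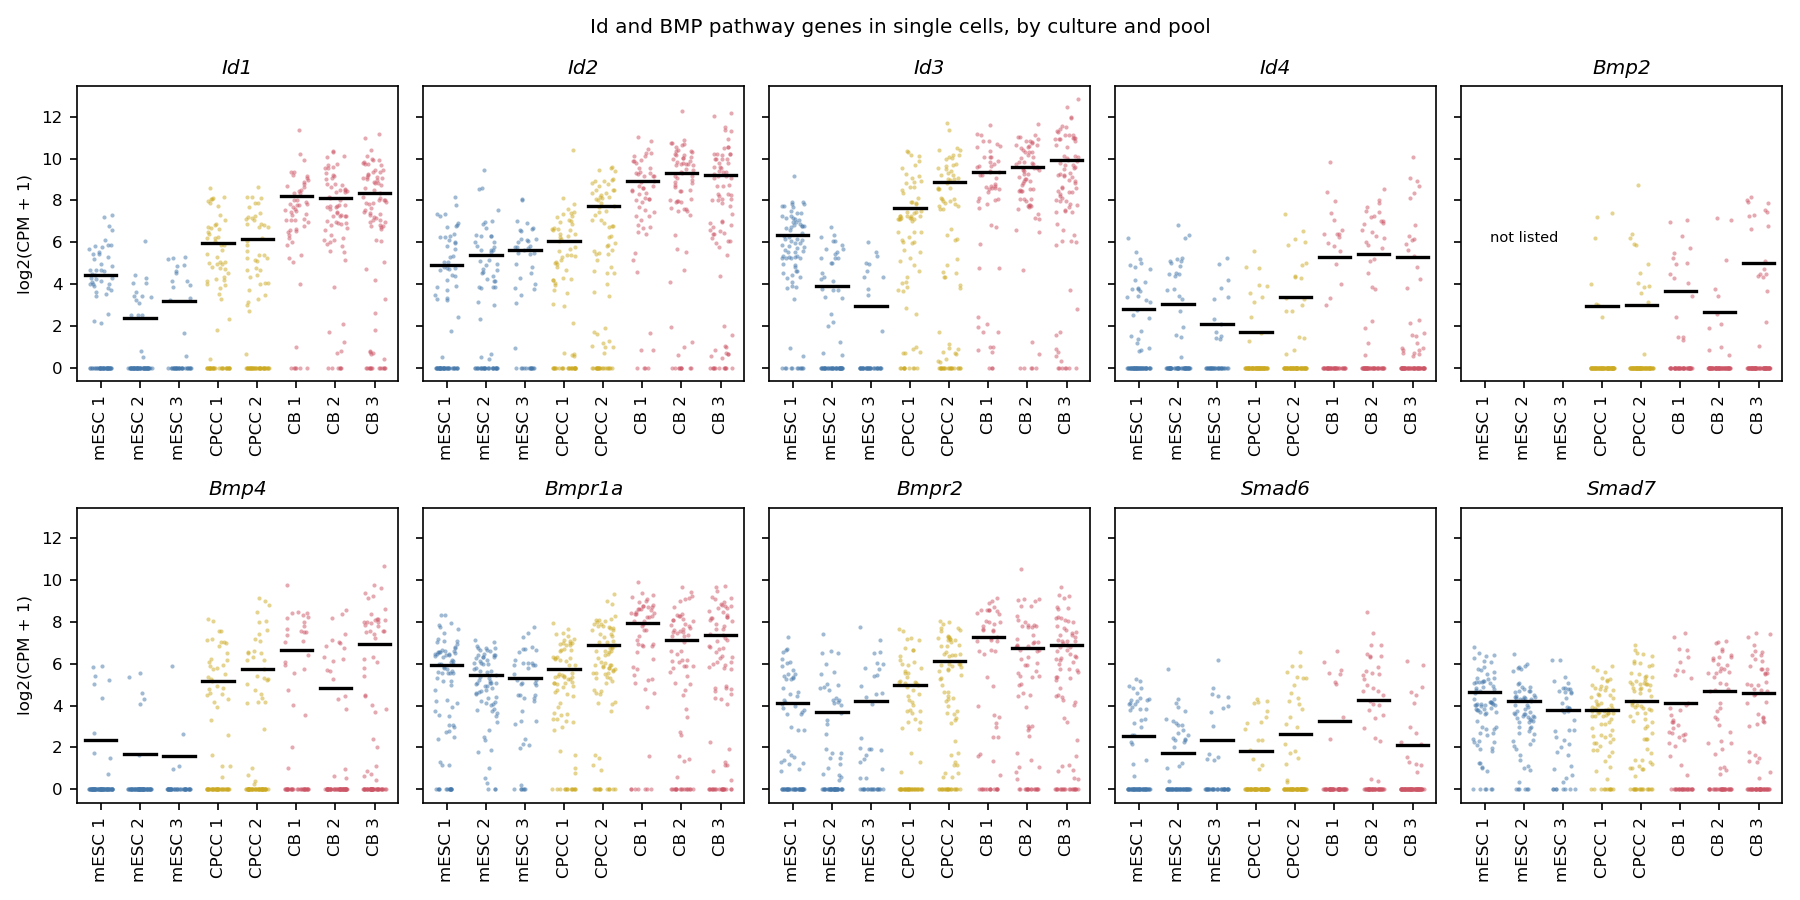
Each point is a cell with 430000 counts or more, drawn by culture and pool, and the vertical axis gives log2(CPM + 1). Black bars mark the level of the counts summed over all cells of the pool. Id1, Id2 and Id3 bars stand higher in every CB pool than in any other pool, and Id3 in mESC pool 1 (81.1 CPM) stands above the other mESC pools (14.2 and 6.69 CPM).

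For neither inhibitory SMAD were the pools of any 2 cultures fully apart. Smad7, which blocks both BMP and TGF-beta receptors, had 18.0 CPM in mESC (pools 24.0, 17.4 and 12.6), 15.4 CPM in CPCC (12.7 and 17.9) and 22.4 CPM in CB (16.5, 24.5 and 22.9). The log2 ratios to mESC were -0.21 in CPCC and 0.30 in CB. Its share of cells was 81.9% (75.7 to 87.0%), 77.1% (69.7 to 83.4%) and 51.0% (44.0 to 57.9%). Smad7 counts were held by fewer cells in CB, 7.33% of cells being enough to hold 0.5 of them, against 13.0% in mESC. Since the CB level was not lower than the mESC level, no order was read from the shares.

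Smad6 (chr9:63953076-64022059), the inhibitory SMAD that prefers BMP receptors, had 3.65 CPM in mESC (pools 4.82, 2.37 and 4.09), 3.94 CPM in CPCC (2.49 and 5.30) and 10 CPM in CB (8.45, 18.0 and 3.33). CB pool 2 stood apart from the others, and CB pool 3 lay within the mESC range. The log2 ratio of CB to mESC was 1.24 and was 0.34 without CB pool 2. It was found in 38.0% of the cells of CB pool 2 (26.8 to 50.3%) and in 16.1% and 15.7% of the cells of pools 1 and 3. Over whole cultures the share was 29.5%, 21% and 23.3% in mESC, CPCC and CB. CB pool 2 also held all 20 cells of the endothelial-like cluster described further on. Without those cells Smad6 stood at 12.9 CPM in that pool and 7.54 CPM in CB.

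Id3, Id1 and Id2 had the highest levels of the members in CB per kilobase of exon, at 468, 263 and 241 CPM per kb, with Bmp4 next at 36.0. Id3 (chr4:136143497-136145755) had 33.1 CPM in mESC (pools 81.1, 14.2 and 6.69), 338 CPM in CPCC (195 and 471) and 837 CPM in CB (651, 787 and 965). The pools of the 3 cultures did not overlap even though mESC pool 1 was well above the other mESC pools. Relative to mESC the level was 10.2-fold in CPCC and 25.3-fold in CB, with log2 ratios of 3.31 and 4.62. Without mESC pool 1 these were 4.82 and 6.13, and without CPCC pool 2 the first was 2.53. The share of cells was 53.9% (46.6 to 61.1%), 75.2% (67.6 to 81.7%) and 91.0% (86.2 to 94.5%). Within mESC it was 84.8% in pool 1, 37.1% in pool 2 and 25% in pool 3.

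Id1 (chr2:152736251-152737410), the Id gene most often used as a readout of BMP signalling, had 10.6 CPM in mESC (pools 20.9, 4.26 and 8.02), 66.5 CPM in CPCC (61.2 and 71.3) and 305 CPM in CB (296, 279 and 332). The cultures did not overlap, and the spread between pools was small in CPCC and CB. The log2 ratios were 2.54 for CPCC over mESC, 4.72 for CB over mESC and 2.18 for CB over CPCC. Leaving out any one pool gave 2.11 to 3.29, 4.29 to 5.48 and 2.08 to 2.30 for the 3 pairs. The highest values of the first 2 pairs were those without mESC pool 1. Id1 was found in 34.2% of mESC cells (27.5 to 41.4%), 56.7% of CPCC cells (48.6 to 64.6%) and 83.8% of CB cells (78.1 to 88.5%). In mESC pool 2 one cell held 55.2% of the Id1 counts.

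Id2 (chr12:25093799-25097140), which also acts in many blood and epithelial lineages, had 40.0 CPM in mESC (pools 29.3, 41.6 and 49.2), 143 CPM in CPCC (65.5 and 215) and 587 CPM in CB (479, 632 and 592). The cultures did not overlap, but CPCC pool 1 was close to the highest mESC pool. The log2 ratio of CPCC to mESC was 1.81 and was 0.70 without CPCC pool 2. That pool held all 14 cells of a macrophage-like cluster, and without them its Id2 level was 168 CPM and the CPCC level 112 CPM. The share of cells was 54.4%, 66.9% and 85.2% in mESC, CPCC and CB. In mESC, pool 1 was the lowest of the 3 pools for Id2 and the highest for Id1 and Id3.

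Id4 (chr13:48261228-48266026), the Id gene best known from the nervous system, was the least abundant of the 4, at 1.47, 1.57 and 10.4 CPM per kb in mESC, CPCC and CB. It had 5.66 CPM in mESC (pools 6.07, 7.12 and 3.29), 6.04 CPM in CPCC (2.26 and 9.57) and 40.2 CPM in CB (38.7, 42.4 and 38.8). All CB pools were above all other pools and close together, while the mESC and CPCC pools overlapped. The log2 ratio of CB to mESC was 2.63. CPCC over mESC was 0.08, and it was -1.03 without CPCC pool 2. One cell held 34.0% of the CPCC counts of Id4. The share of cells was 27.5%, 15.9% and 29.5%, so the higher CB level was not matched by a larger share of cells than in mESC.

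**Figure D2:**
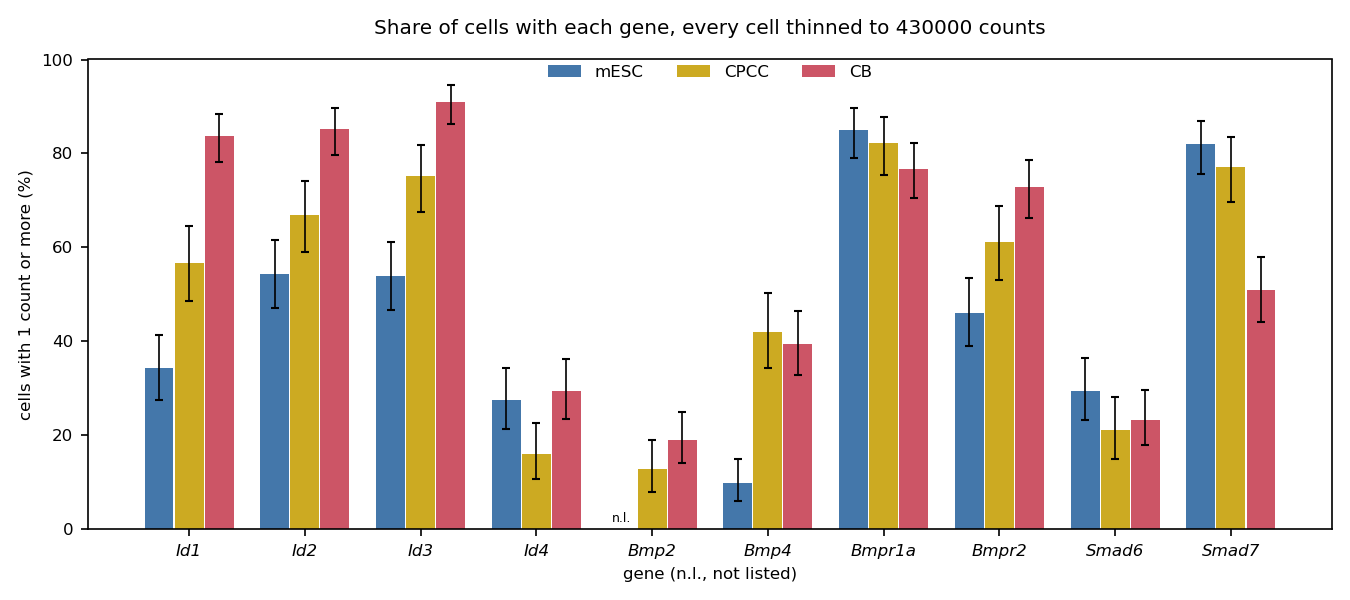
Bars give the percentage of cells with 1 count or more of each gene after thinning every cell to 430000 counts (193 mESC, 157 CPCC and 210 CB cells), with 95% exact binomial intervals. Id1 rises from 34.2% to 56.7% and 83.8%, Bmp4 from 9.84% to 42.0% and 39.5%, and Smad7 stands at 81.9%, 77.1% and 51.0%.

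Counted over the members, 5 of the 9 listed in both tables were at least 2-fold higher in CPCC than in mESC (Id1, Id2, Id3, Bmp4 and Bmpr2) and none was 2-fold lower. Over all 20272 genes listed in both, 13.4% were 2-fold higher and 6.38% were 2-fold lower. Without CPCC pool 2, 3 members were 2-fold higher (Id1, Id3 and Bmp4) and 1 was 2-fold lower (Id4 at -1.03). Every CPCC pool was above every mESC pool for the same 5 members and for 19.0% of all genes. Between CB and mESC, 8 of 9 members were 2-fold higher, Smad7 being the exception, and none was lower, against 24.9% higher and 11.3% lower among all genes. The pools were fully apart for 7 members, without Smad6 and Smad7, and for 24.7% of all genes. Between CB and CPCC, 7 of 10 were 2-fold higher (the 4 Id genes, Bmp2, Bmpr2 and Smad6), with 17.0% higher and 7.54% lower among all genes. Without CPCC pool 1 the last count was 4 (the 3 that dropped out were Id3, Bmpr2 and Smad6). The pools were fully apart for 6 members (the Id genes and both receptors) and for 17.9% of all genes. The CB and CPCC comparisons with mESC share the mESC cells, and the members were chosen with earlier results of these data known. The median log2 ratio of the members was 1.68, 2.93 and 1.23 in the 3 comparisons, beside -0.02, 0.13 and 0.14 over all genes. Among genes at 1 CPM or more in either culture of a pair, the shares 2-fold higher were 17.5%, 30.8% and 21.3%.

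The scaling moved the middle of the CB comparisons. Among genes at 1 CPM or more in either culture, the median log2 ratio of CB to mESC was 0.29 by CPM, 0.14 after TMM scaling and 0.08 after DESeq2 scaling. Of all genes, the DESeq2 factors gave 14.0% higher and 9.87% lower for CB over CPCC. The 3 counts of members were 5, 8 and 6 with either set of factors, Smad6 in CB over CPCC being the one member that changed side, at 0.99 with TMM and 0.98 with DESeq2 factors.

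**Figure D3:**
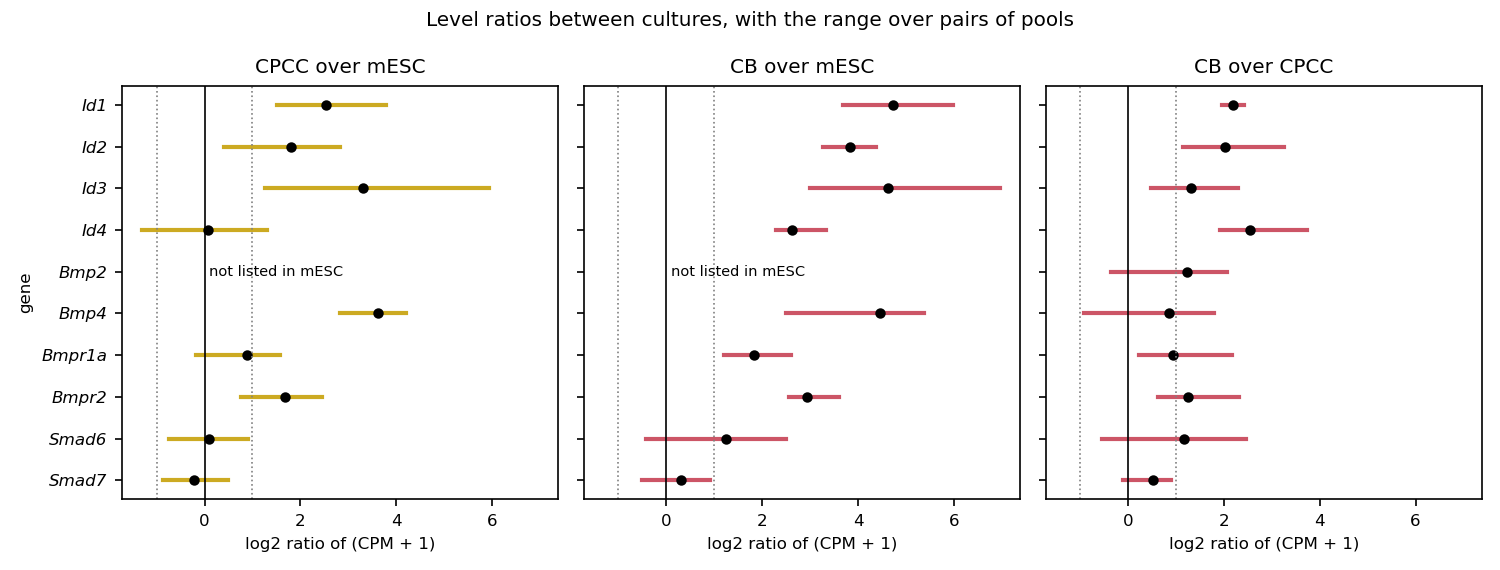
Black points give the log2 ratio of (CPM + 1) of each member in the 3 pairs of cultures, coloured lines the range over all pairs of single pools, and dotted lines mark a 2-fold change. The lines of Id1, Id2, Id3, Bmp4 and Bmpr2 lie wholly above 0 for CPCC over mESC, and those of Smad6 and Smad7 cross 0 in every panel.

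The remaining pathway genes, a list of 65, were described in the same way. Between CPCC and mESC 17 of the 47 listed in both were 2-fold higher and 5 lower, beside 13.4% and 6.38% of all genes. Between CB and mESC 31 of 44 were higher and 1 lower, beside 24.9% and 11.3% of all genes. Between CB and CPCC 32 of 54 were higher and none lower, beside 17.0% and 7.54%. The list medians were 0.64, 1.88 and 1.35, beside -0.02, 0.13 and 0.14 over all genes. Of the extracellular antagonists, 6 of 10 were higher in CPCC and 9 of 10 higher in CB than in mESC, with the same shares of all genes beside them. Genes were ranked by ratio only where they had a count in 25% or more of the cells of the culture in which they were higher. With that limit, the highest log2 ratios of CPCC to mESC were those of 3 follistatin family genes whose products bind activins or BMPs, namely Fstl1 at 4.24 (25.4 to 498 CPM), Fst at 4.16 (1.79 to 48.8 CPM) and Fstl3 at 2.54. Between single pools these spanned 2.16 to 5.26, 2.34 to 5.78 and 0.84 to 3.65. The lowest log2 ratios of this pair within the limit were those of the T-box factor Tbx3 at -2.72 (40.0 to 5.22 CPM), the ligand Bmp7 at -1.69 (8.39 to 1.91 CPM) and the zinc finger factor Gata2 at -1.58. With the same limit, in CB over mESC the antagonist Nbl1 led at 7.47 (0.0456 to 184 CPM, with CB pools at 92.6, 3.45 and 389), followed by Fstl1 at 4.90 and the heart and limb factor Hand2 at 4.08. Its lowest were Tbx3 at -1.90, Gata2 at -0.22 and Fkbp1a, which binds type I receptors, at 0.29. In CB over CPCC the highest within the limit were Nbl1 at 4.60, Bmp7 at 3.99 (1.91 to 45.3 CPM) and Hand2 at 2.61, and the lowest were Fkbp1a at -0.80, the SMAD repressor Skil at -0.04 and the ubiquitin ligase Smurf1 at -0.01. Among these genes, pools overlapped for Gata2 and Fkbp1a in CB over mESC, and for Nbl1, Skil and Smurf1 in CB over CPCC. Some genes found in fewer cells lay further out, among them Nbl1 at 2.86 and Smad9 at -1.59 in CPCC over mESC, Fst at 4.53 in CB over mESC, and the antagonist Sostdc1 at 3.94 in CB over CPCC.

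Bmp7 therefore ran opposite to Bmp4 between mESC and CPCC, and every CPCC pool was below every mESC pool for it. The ligand Gdf3, known from pluripotent cells, had 266 CPM in mESC and 127 CPM in CPCC and was not listed in CB. Its CPCC and mESC pools overlapped, with log2 ratios between single pools from -3.76 to 0.10. Among the signal transducers, Smad1 had 21.9, 31.5 and 42.0 CPM in mESC, CPCC and CB, Smad5 had 23.8, 31.4 and 92.2 CPM, and Smad4 had 55.5, 56.9 and 95.2 CPM. Smad9 had 2.57, 0.185 and 4.55 CPM. None of the 4 was 2-fold higher in CPCC than in mESC, and Smad9 was 2-fold lower (log2 ratio -1.59), with every CPCC pool below every mESC pool. Of the 4, only Smad5 was 2-fold higher in CB than in mESC, while Smad5 (1.53) and Smad9 (2.23) were 2-fold higher in CB than in CPCC.

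None of the 3 E proteins, the partners of the Id proteins, was 2-fold higher in CPCC than in mESC, and 2 of them, Tcf4 and Tcf12, were in CB. Tcf3 had 23.7, 16.9 and 43.7 CPM in mESC, CPCC and CB, Tcf4 had 26.9, 33.1 and 198 CPM, and Tcf12 had 28.5, 46.4 and 251 CPM. Per kilobase of exon, the summed level of the 4 Id genes was 45.5, 306 and 982 CPM per kb, and that of the 3 E proteins was 8.67, 8.38 and 34.2. Id over E protein RNA was therefore 5.24 in mESC (pools 7.83, 4.19 and 3.41), 36.5 in CPCC (26.7 and 43.3) and 28.7 in CB (25.1, 33.2 and 27.0). Both later cultures were above mESC in every pool and overlapped each other. Id3 made up 40.6%, 61.6% and 47.6% of the Id sum, and Id4 at most 3.23%. In mESC the make-up varied by pool, with Id3 at 58.9% in pool 1 and Id2 at 56.0% and 63.7% in pools 2 and 3.

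Single cells more often held several Id genes at once in the later cultures. At equal depth, Id1, Id2 and Id3 were all found in 29 of 193 mESC cells (15.0%, interval 10.3 to 20.9%), 61 of 157 CPCC cells (38.9%, 31.2 to 46.9%) and 147 of 210 CB cells (70.0%, 63.3 to 76.1%). The pools gave 25.3%, 5.71% and 11.4% in mESC, 40.8% and 37.0% in CPCC, and 75.0%, 80.3% and 57.8% in CB. None of the 3 genes was found in 19.2% of mESC, 7.01% of CPCC and 1.43% of CB cells.

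**Figure D4:**
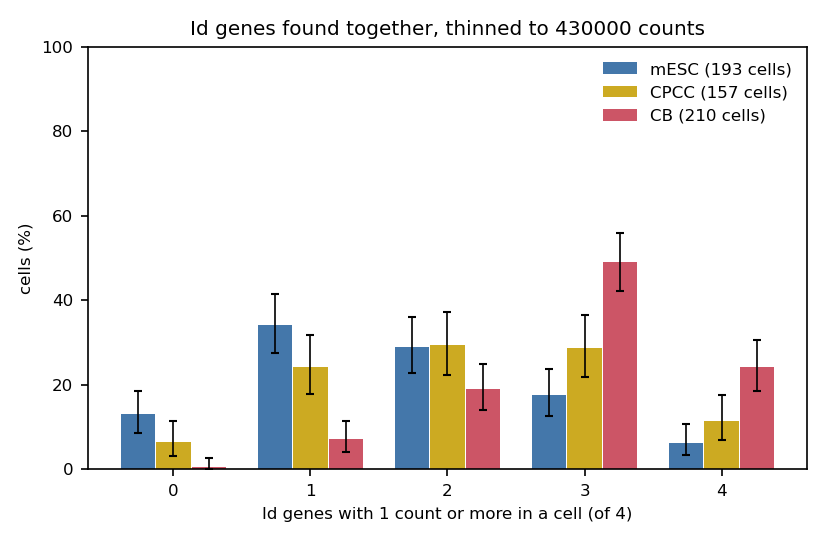
Bars give the percentage of cells in which 0 to 4 of the Id genes had 1 count or more, after thinning to 430000 counts, with 95% exact binomial intervals. The most frequent number was 1 in mESC (34.2% of cells), 2 in CPCC (29.3%) and 3 in CB (49.0%), but intervals overlap between the mESC bars for 1 and 2 genes (29.0%) and between the CPCC bars for 2 and 3 genes (28.7%).

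In CPCC, Id3, Id1 and Smad7 were found in a larger share of cells with Bmp4 than without it, although the Smad7 intervals overlap. Id3 was found in 63 of 66 cells with Bmp4 (95.5%, 87.3 to 99.1%) and in 55 of 91 cells without it (60.4%, 49.6 to 70.5%). Within pools the pairs were 97.1% and 70.7% in pool 1 and 93.5% and 52.0% in pool 2. The CPCC clusters described further on also differed in both genes. Without thinning, Bmp4 and Id3 were found in 72.2% and 97.2% of cells in cluster 1, 17.2% and 55.2% in cluster 3, and 7.14% and 78.6% in cluster 4. Shares within clusters were not computed, and the part of the clusters was not tested. For Id1 the shares were 71.2% and 46.2%, and for Id2 they were 66.7% and 67.0%. Smad7 was found in 87.9% of cells with Bmp4 (77.5 to 94.6%) and 69.2% of cells without (58.7 to 78.5%), and Smad6 in 25.8% and 17.6%. In CB, Id3 was found in 98.8% of cells with Bmp4 and 85.8% of cells without, and Id1 in 83.1% and 84.3%. In mESC only 19 of the thinned cells held Bmp4, of which 52.6% held Id3, beside 54.0% of the others. Id1 was found in 11 of these 19 cells (57.9%, 33.5 to 79.7%) and in 55 of the 174 without Bmp4 (31.6%, 24.8 to 39.1%), and the pairs within pools were 80.0% and 43.5%, 33.3% and 20.3%, and 33.3% and 29.3%.

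Across cells, ranks of the members were correlated after thinning, as a description in which cells shared a depth and, within each of the pools, a pool of libraries. In CB, Id1 and Id2 were each other's closest gene among 8970 compared, with a Spearman correlation of 0.47 over 210 cells (0.34 to 0.57 within pools). In CPCC, the gene closest to Id1 among 11160 was Id3, at 0.40 over 157 cells (0.28 and 0.49 within pools). Id3 itself was closest to Fermt2 and Dclk1, both at 0.63, and to Tgfb2 at 0.60, while Bmp4 was closest to Fermt2 at 0.47, Htra1 at 0.46 and Id3 at 0.42. Bmpr2 in CPCC was closest to the integrin Itgb1 at 0.64, Zyx at 0.62 and Ccn4 at 0.62, and Id2 to Zeb2 and Rhog, both at 0.51. In CB, Bmp4 was closest to the matrix genes Eln and Mmp2, both at 0.47, and Col1a2 at 0.45, and Id3 was closest to Cpxm1, Igfbp4 and the E protein Tcf12 (0.42, 0.41 and 0.37). In mESC, Id3 was closest to Epop, at 0.53 over 193 cells, but only 0.12 to 0.29 within pools, so this value followed the difference between pools. The remaining closest genes had correlations of 0.24 to 0.51, and in mESC none of those of Id2, Id4, Bmpr2 or Smad6 exceeded 0.33.

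Cells of each culture were also grouped into clusters with the members and pathway genes left out of the clustering. A marker is counted for a cluster where it was detected in most of its cells. The 3 mESC clusters all had 10 of 10 pluripotent markers in most cells. Cluster 0 held 85 cells, 83 of them from pool 1, and had Id3 at 78.9 CPM in 85.9% of cells, against 17.2 and 8.20 CPM in clusters 1 and 2. Id1 was at 22.0, 8.52 and 1.69 CPM in the same order, and Id2 at 31.0, 54.5 and 27.8. Cluster 0 and pool 1 cannot be told apart.

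In CPCC, the pluripotent-like cluster 0 (66 cells, 57 from pool 1) allowed a comparison with mESC in a cluster where each of the 10 pluripotent markers was detected in most cells. Bmp4 stood at 26.8 CPM there and was found in 47.0% of cells (34.6 to 59.7%), beside 2.73 CPM and 10.2% of all mESC cells, with both sets unthinned and median depths of 1433676 and 1528316 counts. Id1 stood at 53.8 CPM and Id3 at 117 CPM in this cluster, 5.08 and 3.54 times the mESC levels, while mESC pool 1 alone reached 20.9 and 81.1 CPM. Id2 at 42.8, Bmpr1a at 41.7, Bmpr2 at 11, Smad6 at 3.19 and Smad7 at 14.6 CPM were within 1.5 times of the mESC levels. Id4 at 2.19 CPM was below the mESC level. Bmp2 was found in 1 of the 66 cells.

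Levels of the members differed between the other CPCC clusters. Cluster 1 (36 cells, led by Mgp, Fbln5, Lox, Postn and Col1a2) had the highest Id3, at 877 CPM in 97.2% of cells. It also had Bmpr1a at 169 CPM in 91.7%, Bmpr2 at 103 CPM in 97.2% and Bmp4 at 69.1 CPM in 72.2%. It was left unnamed, with 4 of 10 fibroblast and 4 of 8 smooth muscle markers in most cells. Their summed levels were 1970 and 17455 CPM. Cluster 2 (30 cells, led by Acta1, Srr, Krt8, Krt18 and Brip1, unnamed) had Bmp4 at 106 and Bmp2 at 17.5 CPM, but a single cell held 46.0% of its Bmp4 counts and a single cell 45.7% of its Bmp2 counts, and Bmp4 was found in 33.3% of its cells. When all variable genes were used for clustering, 10 of these cells stood apart, with 54.4% mitochondrial counts, a median depth of 76816 counts and no count of Bmp4, Bmp2 or Bmpr2. The shares of cluster 2 include these low-depth cells. Bmp4 was found in 10 of its 30 cells, all of them outside the low-depth group. Cluster 3 (29 cells, led by Car4, Fgf5, Lefty1, Fgf8 and Fndc3c1, unnamed) had Bmp4 at 13.4 CPM in 17.2% of cells and Id2 at 127 CPM in 72.4%, with 88.6% of its Bmp4 counts and 52.6% of its Id2 counts each held by a single cell. The macrophage-like cluster 4 (14 cells, led by Lyz2, C1qa, Fcrls, C1qc and C1qb, all 8 macrophage markers) had the highest Id2, at 382 CPM in 14 of 14 cells, and almost no Bmp4, at 0.0317 CPM.

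In CB, the ligands were concentrated in the fibroblast-like cluster 1 (61 cells, 8 of 10 markers, with Armc8, Spp1, Penk and Aspn among its leading genes). Bmp4 stood there at 194 CPM in 54.1% of cells, Bmp2 at 45.2 CPM and Id3 at 1390 CPM. At a resolution of 1, 43 of these cells stayed together, with Bmp4 at 217 CPM in 69.8% of cells. A separate group of 20 CB cells, led by Armc8 and Dgcr8, then had a median depth of 382574 counts and 8.61% mitochondrial counts. Cluster 3 (38 cells, led by Actg2, Dlk1, Clca3a1, Tagln and Acta2, unnamed) followed with Bmp4 at 124 and Bmp2 at 27.1 CPM. In most of its cells 9 of 10 fibroblast and 2 of 8 smooth muscle markers were found, so fibroblast markers were not particular to cluster 1. The epithelial-like cluster 2 (42 cells, all 8 markers, led by Cyp2f2, Krt15, Krt4, Upk3bl and Serpinb11, with the mesothelial marker Msln among its leading genes) had the highest Id1, at 484 CPM in 97.6% of cells, and the lowest Id3, at 369 CPM. Bmp4 was at 22.2 CPM there. Clusters and pools went together in CB. Pool 3 gave 40 of the 61 cells of cluster 1 and 32 of the 42 of cluster 2, pool 1 gave 28 of the 38 of cluster 3, and pool 2 gave 4, 0 and 0 cells of the 3 clusters. The part of the pool in the ligand levels of these clusters was not tested. Cluster 0 (71 cells, led by Actc1, Hist1h2ap, Car14, Prtg and Rrm2, unnamed, 54 from pool 2) had Bmp4 at 34.1 CPM and the highest Id4, at 53.3 CPM in 45.1% of cells.

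The endothelial-like cluster 4 of CB (20 cells, all 10 markers, led by Icam2, Plvap, Gja4, Cd93 and Gm36936) combined low ligand with high Bmpr2 and Smad6. Bmp4 was at 6.15 CPM, with 82.1% of its counts in a single cell, and Bmp2 at 0.206 CPM. Bmpr2 was at 215 CPM in 90.0% of its cells (68.3 to 98.8%) and Smad6 at 36.2 CPM in 50% (27.2 to 72.8%), each the highest level of the 5 clusters. Bmpr1a went the other way, with 117 CPM in 55.0% of cells, the lowest of the 5. Id1 and Id3 were found in all 20 cells, which allows a share as low as 83.2%. All of these cells came from pool 2, where the remaining cells had Smad6 at 12.9, Bmpr2 at 75.8 and Bmp4 at 33.6 CPM. Id2 varied little across the CB clusters, from 427 to 662 CPM.

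**Figure D5:**
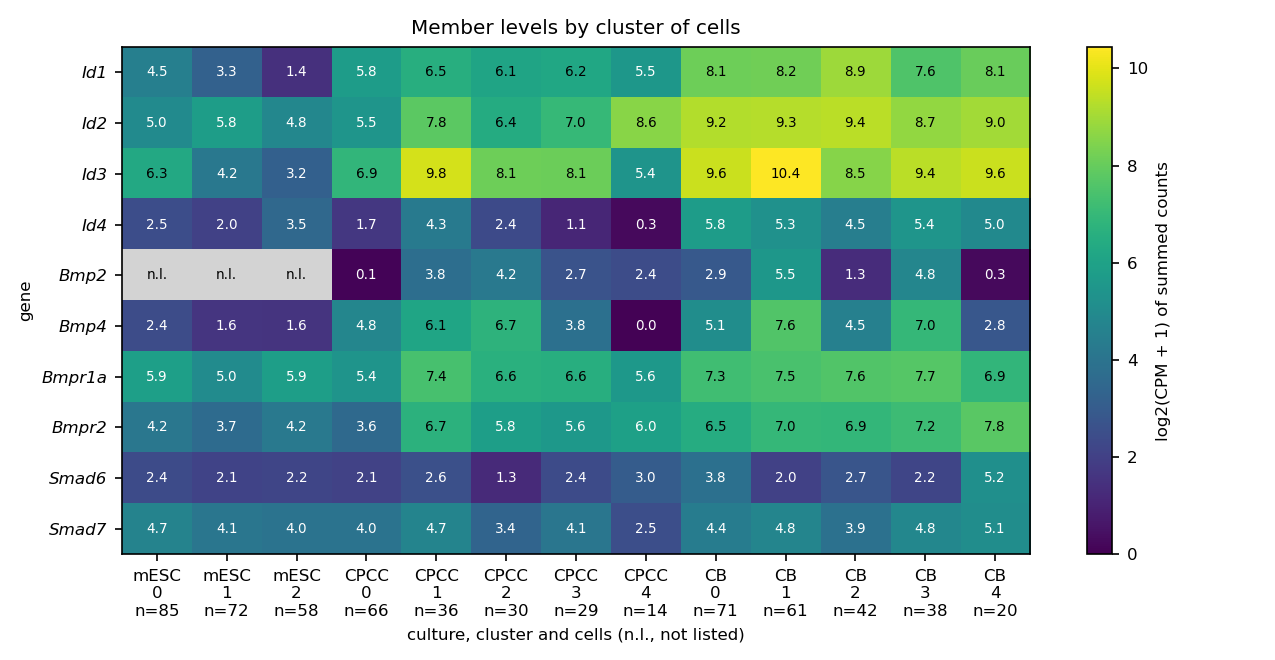
Colour and printed values give log2(CPM + 1) of the counts summed over the cells of each cluster, by culture, with the number of cells below each column. Bmp4 is brightest in CB cluster 1 (194 CPM) and darkest in CPCC cluster 4 (0.0317 CPM), and Smad6 is brightest in CB cluster 4 (36.2 CPM).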

How the data were processed

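Per the labels, single cells were processed on the Fluidigm C1 system, and the submitters' processing notes name STAR 2.7 and mm10. The study's methods state that STAR was run within the Partek Flow software, which also gave the gene counts. The counting rule, and whether strand was used, are not given in the sources used here. The authors deposited gene counts without scaling, as 1 table for each culture: the CPCC table holds whole counts, and the mESC and CB tables hold estimated counts, of which 26.4% and 27.4% of values above 0 were not whole (tolerance 0.001). The planned analysis had assumed whole counts, and values were rounded for thinning and size factors. Each deposited table lists only genes that reach a count of 1 in some cell. For CPCC, 208 rows without a gene and 23 rows with dates for symbols (0.139% of counts) were left out, as were 2 columns of no sample that held no values.

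Counts were summed per culture, pool or cluster, scaled to CPM and compared as log2 ratios of (CPM + 1), with 2-fold as the limit for a call. With 1 sample per group no test was made. Intervals are 95% Clopper-Pearson intervals. Exon lengths and positions came from GENCODE M21 (GRCm38). Clustering used Seurat 5.3.0 with a scale factor of 10000, variable genes of mean 0.0125 to 3 and dispersion above 0.5, counts per cell regressed out, 10 components and a resolution of 0.6. No doublet caller was run and no cell was removed. Alternatives used edgeR 4.0.16 (TMM) and DESeq2 1.42.0 size factors, other pseudocounts, cell and gene filters, and each pool left out. Ratios and thinning were tested on simulated data. Named genes were all members, the 3 highest and 3 lowest pathway genes per pair with a count in 25% or more of cells in the culture where they are higher, the E proteins and Smad1, Smad5, Smad9 and Smad4, the 3 closest genes per member, the 5 leading genes per cluster (1 of which is not reported here, while those of the mESC clusters and CPCC cluster 0 are not listed in the text), and markers; Gdf3 and Sostdc1 were named after their values were seen. The members and all lists were chosen with earlier results of these data known.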

Additional observations from a re-analysis of the deposited data

How the results depend on the processing

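The counts of members at least 2-fold apart were 5 of 9 for CPCC over mESC, 8 of 9 for CB over mESC and 7 of 10 for CB over CPCC. Of 43 recomputed counts, 42 stayed within 1.5 times of these, and CB over CPCC without CPCC pool 1, with 4 members, did not. Leaving out single pools gave 4 to 6, 7 to 8 and 4 to 9 in the 3 pairs. The 4 of the first pair, without CPCC pool 2, were 3 members higher and Id4 lower, so the count of higher members fell from 5 to 3. Of 401 recomputed log2 ratios 247 moved by more than the Poisson counting error of their summed reads, which is a narrow limit for abundant genes. Of 87 recomputed shares of cells 13 left their binomial interval, all 13 at 5 counts or more. No member past the 2-fold limit turned direction. Id4, Smad6 and Smad7 in CPCC over mESC, all near 0, changed sign under some settings, from -1.03 to 0.67, from -0.42 to 0.44 and from -0.47 to 0.01 without single pools. Log2 ratios past the 2-fold limit fell below it without single pools for Id2 (0.70) and Bmpr2 (0.97) in CPCC over mESC without CPCC pool 2, for Smad6 in CB over mESC without CB pool 2 (0.34), and in CB over CPCC for Id3 (0.83), Bmpr2 (0.79) and Smad6 (0.81) without CPCC pool 1, Smad6 without CB pool 2 (0.25) and Bmp2 without CB pool 3 (0.09). Bmp2 in CB over CPCC also fell below it at a pseudocount of 10 CPM (0.70) and when cells were weighted equally (0.86), and Smad6 at that pseudocount in CB over mESC (0.55) and CB over CPCC (0.52) and with TMM (0.99) and DESeq2 factors (0.98) in the latter. Bmpr1a in CPCC over mESC, and Bmp4 and Bmpr1a in CB over CPCC, passed it without some pools (up to 1.33, 1.36 and 1.64), and Bmpr1a in CB over CPCC also when cells were weighted equally (1.12). The cause was not tested. Leaving out the cell with the most counts of a gene, and leaving out cluster 4 of CPCC or CB, were chosen after seeing the data. The latter moved no culture level by over 1.5 times. Cluster 4 of CPCC and of CB held the same cells under both other clustering settings, mESC clusters 0 and 1 and CB cluster 1 were split under one or both, a resolution of 1 set 15 mESC cells with 40.8% mitochondrial counts apart, and with all variable genes 19 of the 30 cells of CPCC cluster 2 joined cluster 1, with Id3 at 688 CPM in the joint cluster. Shares at 5 counts or more were lower, for example 40.9% for Smad7 in CB. Genes near 1 count per cell limit what the shares can show. No paired analysis was possible because the labels give 1 sample per group, the mESC title calls its sample a triplicate without tying pools to replicates, table headers number no replicates and none of the results is a test.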
